A study of Mus musculus with 219 samples.

Results

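A group of 9 genes that mark the medium spiny neuron was followed through every library of a mouse left prefrontal cortex RNA series: the dopamine receptors Drd1 and Drd2, the adenosine receptor Adora2a, the neuropeptide precursors Penk and Tac1, the signalling proteins Ppp1r1b, Rgs9 and Pde10a, and the sodium channel subunit Scn4b. They were taken by name, and each matched 1 identifier among the 55487 in the deposited count tables, so they are 9 of 55487. The atlas table held 92 libraries of wild-type mice (WT/WT, which the labels also write Snord116+/+Ctg-/-) at about 12 weeks of age, kept on 12:12 light and dark in the home cage and killed every 3 h from ZT0 to ZT21, where ZT counts hours from lights on. The other table held 126 libraries of mice killed at ZT6 (the ZT6 set), grouped by light cycle, cage, sex and genotype. The questions are how far these genes vary together from piece to piece of cortex, and whether light cycle, cage, sex, genotype or time of day moves any of them beyond that shared variation.

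In the ZT6 set, 63 libraries came from mice entrained to 11:11 light and dark and 63 from mice entrained to 12:12. By cage, 63 came from mice in indirect calorimetry chambers (31 males and 32 females), labelled as collected in constant darkness (D:D), and 63 from mice in cages with running wheels (31 males and 32 females), labelled as collected in light and dark (L:D). The lighting at collection and the cage therefore cannot be told apart. The 4 genotypes were HET/WT (Snord116+/-Ctg-/-, 32 libraries), WT/TG (Snord116+/+Ctg+/-, 30 libraries), HET/TG (Snord116+/-Ctg+/-, 32 libraries) and WT/WT (Snord116+/+Ctg-/-, 32 libraries). Snord116 is the imprinted small nucleolar RNA cluster lost in Prader-Willi syndrome, and Ctg is the transgene as the labels write it. These mice entered light-controlled housing at about 8 weeks of age, at 22 °C, with 7 days of acclimation. They were entrained for 22 days in all, the last 7 of them on the wheel in the running wheel cages, or before the move in the calorimetry chambers. The labels number the libraries of a group as biological replicates. The atlas had 46 males and 46 females, with 6 libraries per sex and time and 5 per sex at ZT18 and ZT21.

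Medium spiny neurons are the GABAergic projection neurons that make up most of the striatum. They fall into a direct pathway class that carries the D1 receptor and makes substance P and a class of the indirect pathway that carries the D2 and adenosine (Adora2a) receptors and makes enkephalin. D1 and Adora2a receptors raise cyclic AMP through the G protein Golf, D2 receptors lower it, and DARPP-32 (the product of Ppp1r1b) and phosphodiesterase 10A act on that signal inside the cell. The prefrontal cortex has its own, sparser cells with some of these transcripts, such as D1 receptor neurons of the deep layers and enkephalin interneurons, and it lies close in front of the striatum, nucleus accumbens and claustrum.

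The 250 bases before the start of transcription are shown for 5 genes on which the results below turn: Drd1, the D1 receptor; Drd2, which varied over the widest range; Tac1, whose difference between cages changed sign once the shared variation was fitted; and Rgs9 and Scn4b, which passed the test for a 24 h rhythm in that fit. The sequences and the starts are RefSeq's on GRCm38.p6, where 6 of the 9 genes had an entry (Penk, Adora2a and Ppp1r1b had none). Each is read 5′ to 3′ on the gene's own strand. By the GENCODE gene positions given below, the Scn4b and Tac1 windows lie mostly inside the gene, and the Drd1 window reaches into it. For Drd2 and Rgs9, the bases checked past the RefSeq start were not found in a GENCODE transcript of the gene. Capitals mark matches, on either strand, to TGACG (the half-site of the cyclic AMP response element), CACGTG (an E-box, the core that clock and other basic helix-loop-helix factors bind), GGGCGG (a GC box) and TATAAA. No match overlaps another. 
Drd1 chr13:54055659-54055908, minus strand: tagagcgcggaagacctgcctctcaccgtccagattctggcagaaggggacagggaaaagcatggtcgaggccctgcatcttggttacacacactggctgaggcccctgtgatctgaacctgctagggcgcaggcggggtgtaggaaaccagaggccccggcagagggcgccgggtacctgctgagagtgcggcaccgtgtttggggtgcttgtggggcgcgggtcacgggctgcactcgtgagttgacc
Drd2 chr9:49340153-49340402, plus strand: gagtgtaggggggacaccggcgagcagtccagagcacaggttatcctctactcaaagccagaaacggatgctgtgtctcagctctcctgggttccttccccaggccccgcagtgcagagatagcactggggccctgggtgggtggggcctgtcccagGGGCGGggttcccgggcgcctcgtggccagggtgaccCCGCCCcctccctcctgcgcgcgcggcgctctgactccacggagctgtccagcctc
Tac1 chr6:7554811-7555060, plus strand: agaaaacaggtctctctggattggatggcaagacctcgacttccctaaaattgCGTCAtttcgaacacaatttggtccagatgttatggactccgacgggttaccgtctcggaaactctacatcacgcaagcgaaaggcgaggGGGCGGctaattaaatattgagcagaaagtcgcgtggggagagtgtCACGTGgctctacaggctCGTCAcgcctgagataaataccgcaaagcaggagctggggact
Rgs9 chr11:109298182-109298431, minus strand: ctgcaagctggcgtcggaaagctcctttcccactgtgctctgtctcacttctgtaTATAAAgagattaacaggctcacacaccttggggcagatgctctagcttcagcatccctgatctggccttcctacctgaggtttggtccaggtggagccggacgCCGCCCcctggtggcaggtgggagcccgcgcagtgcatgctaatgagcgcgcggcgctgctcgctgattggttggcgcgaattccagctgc
Scn4b chr9:45138374-45138623, plus strand: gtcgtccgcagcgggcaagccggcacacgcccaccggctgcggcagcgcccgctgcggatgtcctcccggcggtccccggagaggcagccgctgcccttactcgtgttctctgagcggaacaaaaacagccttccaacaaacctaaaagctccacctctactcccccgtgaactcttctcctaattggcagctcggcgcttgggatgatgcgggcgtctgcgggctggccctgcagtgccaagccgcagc

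The Tac1 window holds 2 matches to TGACG, 197 and 43 bases before the start, a CACGTG at 61 bases and a GGGCGG at 107 bases. Of 32851 promoter windows of the same length, 17.8% hold TGACG and 6.02% hold CACGTG. Drd2 has GGGCGG at 93 and 56 bases, and Rgs9 has GGGCGG at 91 bases and TATAAA at 195 bases, against 32.7% of windows with GGGCGG and 12.4% with TATAAA. None of these letters occur in the Drd1 and Scn4b windows printed. RefSeq holds another Drd1 window, chr13:54054781-54055030, which is not printed and has a GGGCGG at 133 bases. A match is a description of letters, and no binding was measured.

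The libraries held 12737699 to 29856536 counts in the ZT6 set (median 17218721) and 12995491 to 18420258 in the atlas (median 15117293). All 9 genes passed the filter on low counts in both tables. Levels are CPM, the counts of a gene per 1000000 counts of the library scaled by edgeR's TMM method. Markers of cortical projection neurons were present in every library, where 9 of them summed to 1182 to 2095 CPM in the ZT6 set and 1458 to 1908 CPM in the atlas. The sum includes Bcl11b and Foxp2, which medium spiny neurons also express, and how much of each piece was cortex was not measured. The library labelled HET/WT, running wheel, female, 11:11, replicate 3 had 167 CPM of Snhg14, the host transcript of Snord116, where the other 31 HET/WT libraries had 20.8 to 54.3 CPM and WT/WT libraries 116 to 281 CPM. It was kept under its label. In the atlas, 3 libraries stood apart in Scn4b, with 30.6 CPM (male, ZT0, replicate 1), 39.1 CPM (female, ZT0, replicate 6) and 23.99 CPM (female, ZT3, replicate 5), where the other 89 libraries had 60.6 to 482 CPM (median 155). They were picked out after their values were seen, and results that rest on them are given with and without them. Penk, Ppp1r1b and Pde10a overlap annotated genes on the other strand, so a part of their counts is uncertain where the strand setting of the counting is not given.

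Of all 9 genes, the receptors Drd2 and Adora2a spread over the widest range. Drd1 (ENSMUSG00000021478, chr13:54051183-54055705, mm10, minus strand) had 6.81 to 102 CPM (median 28.4) in the ZT6 set and 7.14 to 89.1 CPM (median 17.3) in the atlas. Drd2 (ENSMUSG00000032259, chr9:49340627-49408177, plus strand) had 0.154 to 73.4 CPM (median 11.98) in the ZT6 set and 0.592 to 68.3 CPM (median 8.403) in the atlas. The lowest Drd2 value in the ZT6 set was 2 reads in a library of the calorimetry males, so some cortex libraries held almost no D2 receptor transcript. Adora2a (ENSMUSG00000020178, chr10:75316877-75334784, plus strand), the receptor that D2 neurons carry beside Drd2, had 1.07 to 75.2 CPM (median 14.4) in the ZT6 set and 0.9601 to 88.1 CPM (median 10.5) in the atlas, which is 70.1-fold and 91.8-fold between the lowest and the highest library.

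Of the neuropeptide precursors, Penk (ENSMUSG00000045573, chr4:4133531-4138819, minus strand), which gives the enkephalins, had 14.2 to 299.8 CPM (median 63.7) in the ZT6 set and 16.1 to 333 CPM (median 51.8) in the atlas. Tac1 (ENSMUSG00000061762, chr6:7554879-7565834, plus strand), which gives substance P and neurokinin A, had 4.31 to 58.9 CPM (median 11.9) in the ZT6 set and 4.24 to 41.9 CPM (median 10.6) in the atlas. The lowest and highest libraries differed 21.1-fold in Penk and 13.7-fold in Tac1 at ZT6, and 20.7-fold and 9.88-fold in the atlas.

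Inside the cell, Ppp1r1b (ENSMUSG00000061718, chr11:98348404-98357796, plus strand), whose product inhibits protein phosphatase 1 when protein kinase A phosphorylates it, had 53.6 to 442 CPM (median 125) in the ZT6 set and 42.6 to 427 CPM (median 99.4) in the atlas. Rgs9 (ENSMUSG00000020599, chr11:109225355-109298129, minus strand), a GTPase activator that shortens G protein signals, had 5.99 to 112 CPM (median 26.05) in the ZT6 set and 6.39 to 126 CPM (median 20.4) in the atlas. Pde10a (ENSMUSG00000023868, chr17:8525372-8986648, plus strand), the phosphodiesterase that degrades cyclic AMP and cyclic GMP in these neurons, had 39.4 to 639 CPM (median 153) in the ZT6 set and 51.5 to 576 CPM (median 127) in the atlas. The channel subunit Scn4b (ENSMUSG00000046480, chr9:45138395-45154152, plus strand), whose product gives sodium channels resurgent current, had 79.2 to 504 CPM (median 180.5) in the ZT6 set and 23.99 to 482 CPM (median 145) in the atlas. At ZT6 it spanned the narrowest range of the 9 genes, 6.37-fold from the lowest to the highest library. 

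Divided by exon length, the median levels in the ZT6 set were 42.6 CPM per kb for Ppp1r1b, 39.01 for Penk, 36.2 for Scn4b, 11.9 for Pde10a, 7.82 for Drd1, 4.704 for Drd2, 4.703 for Adora2a, 4.08 for Rgs9 and 3.51 for Tac1. The ranges over libraries of neighbours in this order overlapped in every case, so the order is a description of the medians. Per kb, the same 4 genes led in the atlas, with 33.96 CPM per kb for Ppp1r1b, 31.7 for Penk, 29.02 for Scn4b and 9.87 for Pde10a, and Tac1 again had the lowest median at 3.13.

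The 9 genes went up and down together from library to library. The library with the highest striatal score (defined below) in the ZT6 set (running wheel, female, 11:11, HET/WT, replicate 2) had 102 CPM of Drd1, 72.2 CPM of Drd2 and 299.8 CPM of Penk. The library with the lowest score there (calorimetry, male, 11:11, WT/WT, replicate 3) had 8.37 CPM of Drd1, 0.372 CPM of Drd2 and 17.3 CPM of Penk. In bulk tissue, fewer cells of a type and less RNA per cell cannot be told apart, here and in all that follows.

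**Figure D1:**
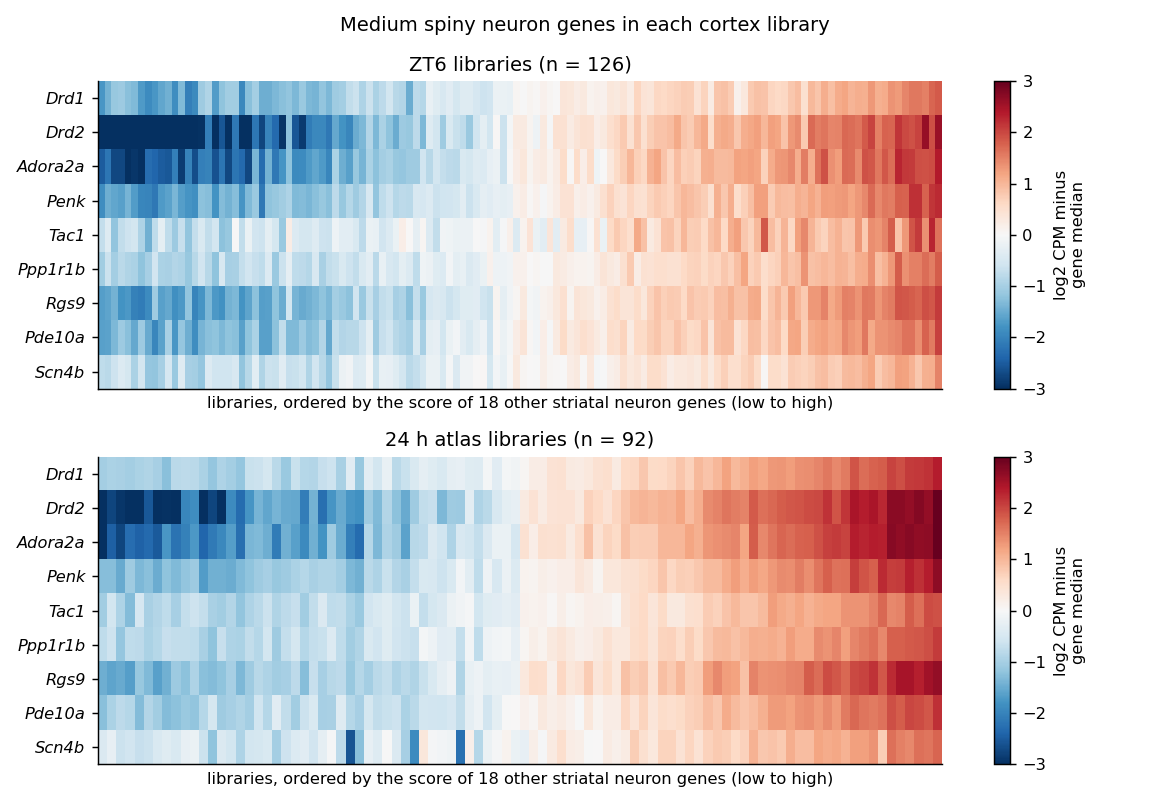
Levels of the 9 genes in each library, as log2 CPM minus the gene's median over the table, with colour ending at 3 log2 units either way (ZT6 set, 126 libraries, above, and atlas, 92 libraries, below). Libraries run from the lowest to the highest striatal score, a mean of 18 other striatal genes, and all 9 rows change colour along the same axis, Scn4b the least in the ZT6 set.

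Across the 36 pairs of genes, the Pearson correlation of log2 CPM over 126 ZT6 libraries, after each library's group mean was taken off, ran from 0.889 to 0.982 with a median of 0.956. Spearman's coefficient ran from 0.9002 to 0.978 (median 0.956). These values describe the libraries and carry no p-value, since all genes of a library share its dissection, depth and scaling. Over the 92 atlas libraries the 36 Pearson values ran from 0.726 to 0.9799 (median 0.951), and the Spearman values from 0.812 to 0.9701 (median 0.942). Without the 2 libraries farthest from the median score, the Pearson medians were 0.953 in the ZT6 set and 0.944 in the atlas. Within each cage the ZT6 median was 0.955 in calorimetry mice and 0.958 in running wheel mice, and within each sex it was 0.939 in males and 0.969 in females. In the atlas it was 0.915 in males, whose levels spanned a smaller range, and 0.982 in females.

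Drd1, of the direct pathway, did not pair best with genes of its own pathway. It correlated with Drd2 at 0.938 and with Penk at 0.982 in the ZT6 set, both indirect pathway genes, and with Tac1, the direct pathway peptide, at 0.943. In the atlas the same 3 values were 0.929, 0.976 and 0.957. Drd2, of the indirect pathway, had its highest value with Adora2a of the same pathway, at 0.968 in the ZT6 set and 0.971 in the atlas. Its value with Tac1 was 0.889 in the ZT6 set, the lowest of the 36 pairs there, and 0.892 in the atlas, the lowest of the pairs without Scn4b. Adora2a with Tac1 was at 0.908 and 0.924. Scn4b was the loosest in the atlas, with a median of 0.7798 over its 8 pairs and a range of 0.726 to 0.861. Without the 3 libraries that stood apart in Scn4b the lowest of all 36 values there was 0.818, against 0.726 with them. 

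A striatal score was made from genes outside the 9: the mean log2 CPM, each centred on its table, of 18 other genes known from medium spiny neurons (among them Syndig1l, Rarb, Rxrg, Gpr6, Adcy5, Rasd2, Gng7, Lrrc10b, Slc35d3, Strip2, Pde1b, Ebf1, Zfp503, Six3, Ido1, Serpina9 and Isl1). It ran from -1.76 to 1.89 in the ZT6 set and from -1.44 to 2.07 in the atlas, each table with its own zero. The 18 genes count equally in it, and some lay near the floor, such as Isl1 at 0 to 4.72 CPM (median 0.519) in the ZT6 set. Their correlations with the mean of the 9 had a median of 0.930 there, with Ebf1 lowest at 0.473. Whether the score takes up all of the shared variation was not tested. The 9 genes rose with the score at different rates. Per unit of score, the slope in the ZT6 set was 1.74 ± 0.043 log2 units for Drd2 and 1.54 ± 0.028 for Adora2a (± SE), the 2 receptors of the indirect pathway, and 0.92 ± 0.022 for Drd1. For the peptides it was 1.13 ± 0.020 for Penk and 0.79 ± 0.031 for Tac1. For the signalling genes it was 1.13 ± 0.023 for Rgs9, 0.95 ± 0.020 for Pde10a and 0.79 ± 0.021 for Ppp1r1b, and for Scn4b 0.58 ± 0.022. The atlas gave the same ends of the order, with 1.69 ± 0.045 for Drd2, 1.62 ± 0.036 for Adora2a and 0.67 ± 0.055 for Scn4b. Drd2 and Adora2a thus had the steepest slope and Scn4b the shallowest in both tables, with intervals of 1 SE that did not meet those of the other genes. The lowest ZT6 library had 0.154 CPM for Drd2, 1.07 for Adora2a and 79.2 for Scn4b. Tac1 and Ppp1r1b, with lowest values of 4.31 and 53.6 CPM, had nearly equal slopes. Whether the lowest level of a gene sets its slope was not tested.

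**Figure D2:**
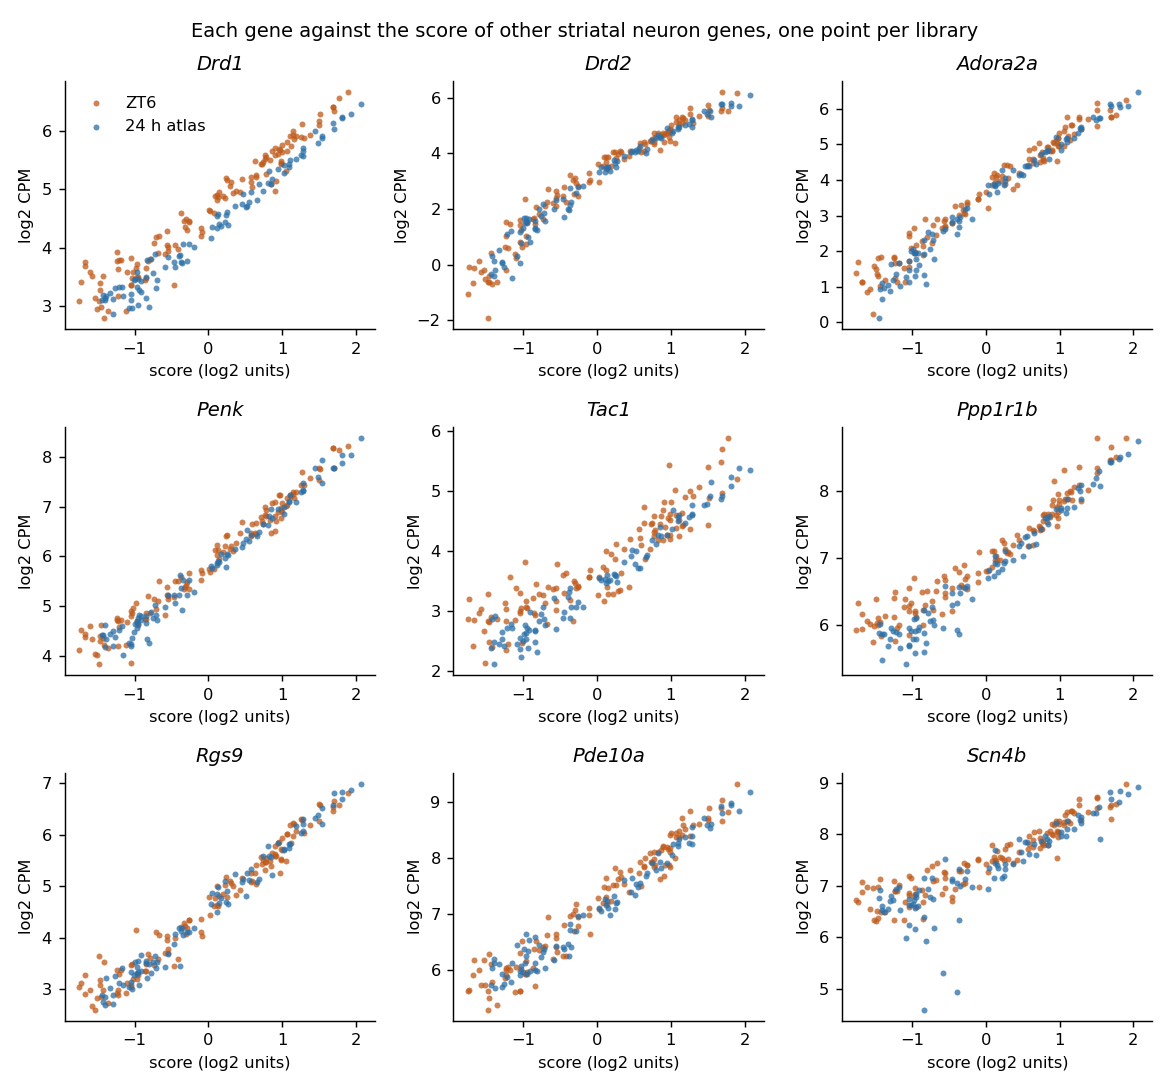
Log2 CPM of each of the 9 genes (vertical axis) against the striatal score of the library (horizontal axis, log2 units, mean of 18 other genes), for the ZT6 set and the atlas, 1 point per library. Drd2 and Adora2a climb the most per unit of score and Scn4b the least, and 3 atlas libraries lie far below the others in Scn4b.

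Among 14243 other genes with a mean log2 CPM above 0 in the ZT6 set, those whose pattern over libraries was most like the mean of the 9 included Syndig1l (r = 0.977), Pde1b (0.974), Rasd2 (0.9603), Gng7 (0.956), Rxrg (0.951), Rarb (0.949), Lrrc10b (0.948), Dach1 (0.945) and Cd4 (0.944). The measure was the Pearson correlation over 126 libraries after group means were taken off. The median over all those genes was -0.035, and 79 lay above 0.8. In the atlas, among 14486 genes and over 92 libraries, they included Rarb (0.967), Syndig1l (0.964), Pde1b (0.962), Cd4 (0.9598), Rasd2 (0.950), Rxrg (0.944), Rasgrp2 (0.942), Gnal (0.936) and Gpr6 (0.934). There the median was -0.019, and 63 lay above 0.8. Of the 9 named in each, 7 in the ZT6 set and 6 in the atlas are genes of the score. Gnal encodes the Golf subunit through which D1 and Adora2a receptors signal.

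Markers of other cells and regions followed the 9 genes to different degrees. The mean of 3 cholinergic interneuron markers (Chat, Slc18a3 and Slc5a7), which mark another cell type of the striatum, correlated with the mean of the 9 at 0.924 in the ZT6 set and 0.902 in the atlas, and their summed level was 0.842 to 19.8 CPM in the ZT6 set. The mean of 4 claustrum and endopiriform markers correlated at 0.794 and 0.577. The mean of 9 cortical projection neuron markers correlated at -0.275 and -0.08803, and within that list the markers parted. Etv1 was at -0.634 and -0.713, Fezf2 at -0.476 and -0.612 and Slc17a7, the cortical vesicular glutamate transporter, at -0.434 and -0.469. Bcl11b and Foxp2, which medium spiny neurons also express, were at 0.9003 and 0.690 in the ZT6 set and 0.675 and 0.819 in the atlas. Libraries high in the 9 genes were thus, by these coefficients, lower in Etv1, Fezf2 and Slc17a7. The mean of 5 neuroblast markers was at 0.3301 and 0.615, that of 5 choroid plexus markers at 0.405 and -0.109, and that of 5 astrocyte markers at -0.3699 and -0.381. The means of the oligodendrocyte, microglia, endothelial, thalamus, septum, hypothalamus, olfactory bulb and cortical interneuron lists lay between -0.218 and 0.227 in both tables. Within the cortical interneuron list, Gad2 was at 0.710 in the ZT6 set and 0.746 in the atlas, and Gad1 at 0.308 and 0.426. The others there ran from -0.469 (Vip) to 0.0871 (Sst) in the ZT6 set and from -0.414 (Vip) to 0.0669 (Npy) in the atlas. Whether striatal tissue entered the pieces was not tested by any measure other than these transcripts.

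In the wild-type atlas, all 9 genes were lower in males than in females. Drd1 had 7.14 to 34.1 CPM (median 10.8) in males and 9.86 to 89.1 CPM (median 35.2) in females. Drd2 had 0.592 to 17.7 CPM (median 2.81) in males and 1.63 to 68.3 CPM (median 23.7) in females (n = 46 each). Adora2a had 0.9601 to 21.9 CPM (median 3.74) in males and 2.39 to 88.1 CPM (median 27.6) in females. The groups overlapped for each of the 3 receptors, since some females were as low as the males, while no male reached the median of the females in any of the 3. Penk had 16.1 to 90.3 CPM (median 26.3) in males and 20.2 to 333 CPM (median 111) in females. Tac1 had 4.24 to 15.1 CPM (median 6.48) in males and 5.46 to 41.9 CPM (median 18.98) in females. Ppp1r1b had 42.6 to 147 CPM (median 61.5) in males and 48.2 to 427 CPM (median 193) in females. The intracellular genes showed the same picture as the receptors. Rgs9 had 6.39 to 35.1 CPM (median 10.98) in males and 9.14 to 126 CPM (median 48.2) in females. Pde10a had 51.5 to 211 CPM (median 78.8) in males and 55.6 to 576 CPM (median 241) in females. Scn4b had 30.6 to 194 CPM (median 108) in males and 23.99 to 482 CPM (median 240.3) in females.

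The male minus female difference among the receptors was -2.52 ± 0.25 log2 units for Drd2 (± SE), -2.34 ± 0.24 for Adora2a and -1.57 ± 0.15 for Drd1. Among the peptides it was -1.86 ± 0.18 for Penk and -1.39 ± 0.13 for Tac1. Among the intracellular genes it was -1.88 ± 0.18 for Rgs9, -1.50 ± 0.15 for Pde10a and -1.41 ± 0.14 for Ppp1r1b, and for Scn4b it was -1.14 ± 0.13. By edgeR's quasi-likelihood test with Benjamini-Hochberg adjustment over 17193 genes, 9 of 9 were called at an adjusted p under 0.05, all lower in males. Of all genes, 41.1% were called and 20.1% were lower in males. The 9 adjusted p-values by edgeR ran from 3.20e-15 to 1.88e-12. The striatal score moved with sex in the same way, at -1.44 to 0.68 (median -0.88) in males and -1.17 to 2.07 (median 0.84) in females. So did the 3 cholinergic markers, which summed to 0.829 to 5.55 CPM (median 1.601) in males and 1.14 to 15.03 CPM (median 5.63) in females. Cortical projection neuron markers summed to 1556 to 1908 CPM (median 1721) in males and 1458 to 1888 CPM (median 1705) in females. With the score in the model, the 9 differences lay between -0.12 and 0.021 log2 units and 0 of 9 were called by edgeR, where 12.5% of all genes were called. At an unadjusted p under 0.05 there was 1 of 9, and a model with the score and its square called 1 of 9 (all genes: 12.5%). The labels give no dissection batch, so sex and the way the tissue of each sex was taken cannot be told apart.

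In the ZT6 set the sexes differed in the calorimetry mice and much less in the running wheel mice. Drd1 had 6.81 to 51.05 CPM (median 11.1) in calorimetry males and 8.64 to 78.4 CPM (median 27.01) in calorimetry females, and in the running wheel mice 11.1 to 95.4 CPM (median 35.9) in males and 10.4 to 102 CPM (median 32.1) in females. Drd2 had 0.154 to 25.7 CPM (median 2.63) in calorimetry males and 0.757 to 47.5 CPM (median 12.1) in calorimetry females, and in the running wheel mice 0.801 to 73.4 CPM (median 17.01) in males and 0.517 to 72.2 CPM (median 16.4) in females. Penk had 14.2 to 151 CPM (median 26.5) in calorimetry males and 16.2 to 217 CPM (median 59.4) in calorimetry females, and in the running wheel mice 20.7 to 292 CPM (median 103) in males and 21.02 to 299.8 CPM (median 74.5) in females. The calorimetry males were the low group of the 4, with medians under the other 3, and all 4 ranges overlapped. Scn4b, the channel subunit, had 79.2 to 289 CPM (median 106) in calorimetry males and 102 to 419 CPM (median 181) in calorimetry females, and in the running wheel mice 109.9 to 409 CPM (median 209.7) in males and 118 to 504 CPM (median 212) in females.

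Among calorimetry mice, 8 of 9 genes were lower in males (all genes: 63.1% called, 34.1% lower). The male minus female difference was -1.62 ± 0.40 log2 units for Drd2 (± SE), -1.07 ± 0.35 for Adora2a and -0.998 ± 0.22 for Drd1. It was -0.87 ± 0.26 for Penk and -0.47 ± 0.19 for Tac1. It was -1.11 ± 0.22 for Pde10a, -1.004 ± 0.27 for Rgs9 and -0.66 ± 0.14 for Scn4b. Ppp1r1b, at -0.32 ± 0.19, was not called (edgeR adjusted p = 0.125). In the running wheel mice 0 of 9 were called, 1 of 9 had an unadjusted p under 0.05, and the differences ran from -0.42 to 0.41 (all genes: 33.8% called). A fit with no filter on low counts, which used a spread shared over genes in place of the 9 genes' own, called 5 of 9 (all genes: 15.4%). The difference of the sex effect between cages was tested itself, in a contrast added after the data were seen: 6 of 9 were called, where 51.8% of all genes were called and 29.1% were negative. The values were -1.29 ± 0.54 for Drd2, -0.94 ± 0.31 for Drd1, -0.90 ± 0.31 for Pde10a, -0.89 ± 0.36 for Penk, -0.88 ± 0.27 for Tac1 and -0.58 ± 0.20 for Scn4b. With the score in the model the 9 values ran from -0.30 to 0.39 (median -0.13, without the score -0.88), and 6 of 9 were called (all genes: 51.5%). Of these, Drd1, Tac1, Pde10a and Scn4b were negative, and Adora2a at 0.39 ± 0.089 and Ppp1r1b at 0.27 ± 0.066 were positive. Without the score, leaving out the libraries numbered replicate 4 brought the 6 called to 2, and leaving out those numbered replicate 3 brought the 8 called among calorimetry mice to 5. Calorimetry males also stood apart in oligodendrocyte markers, which summed to 2175 to 4035 CPM (median 2946) in them, 1951 to 3118 CPM (median 2402) in calorimetry females, 1416 to 2593 CPM (median 2288) in running wheel males and 1789.97 to 2589 CPM (median 2216) in running wheel females. The part of this in the results was not tested.

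**Figure D3:**
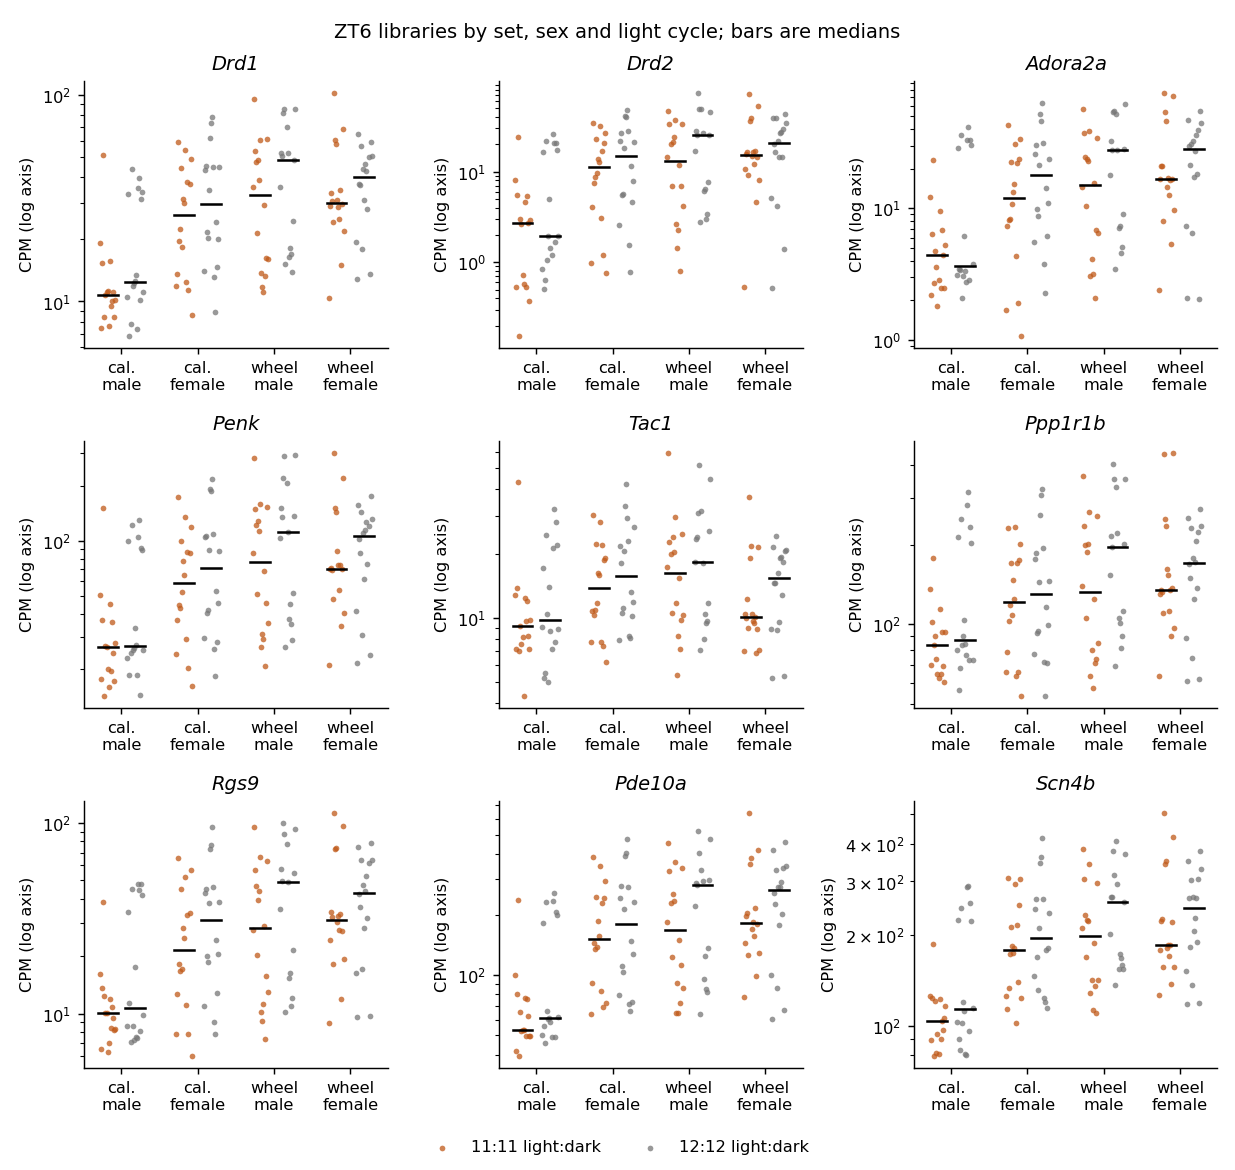
CPM (log axis) of the 9 genes in the ZT6 set by cage and sex, with 11:11 mice (orange, left) beside 12:12 mice (grey, right) in each pair, 1 point per library and a bar at each median. Calorimetry males have the lowest median in all 9 genes, and the 11:11 and 12:12 points overlap in every pair.

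With the score in the model, 5 of 9 genes were called for the sex difference among calorimetry mice (all genes: 61.8%). Pde10a at -0.35 ± 0.048, Drd2 at -0.32 ± 0.11, Drd1 at -0.25 ± 0.053 and Scn4b at -0.22 ± 0.053 were lower in males, and Ppp1r1b at 0.30 ± 0.049 was higher. Tac1 at 0.15 ± 0.074, Adora2a at 0.11 ± 0.068 and Penk at 0.0071 ± 0.048 were not called. In the running wheel mice the same model called 4 of 9 (all genes: 6599 of 18841, 35%), with Tac1 higher in males at 0.45 ± 0.069 and Adora2a at -0.28 ± 0.059, Rgs9 at -0.14 ± 0.050 and Pde10a at -0.13 ± 0.044 lower. In both cages the share of the 9 genes called was near the share of all genes. Over both cages together the sex difference called 7 of 9 genes, lower in males, without the score (all genes: 58.1% called, 30.5% lower). With the score it also called 7 of 9 (all genes: 57.7%), but not the same 7. Tac1 at 0.30 ± 0.051 and Ppp1r1b at 0.16 ± 0.034 were then called higher in males, Drd1, Drd2, Rgs9, Pde10a and Scn4b were called lower, and Penk and Adora2a were not called.

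Between cages, 8 of 9 genes were lower in calorimetry mice than in running wheel mice (all genes: 62.2% called, 32.9% lower). The calorimetry minus running wheel difference was -1.04 ± 0.27 log2 units for Drd2 (± SE), -0.75 ± 0.24 for Adora2a and -0.70 ± 0.15 for Drd1. It was -0.73 ± 0.18 for Penk, and among the intracellular genes -0.77 ± 0.18 for Rgs9, -0.72 ± 0.16 for Pde10a and -0.40 ± 0.13 for Ppp1r1b. For Scn4b it was -0.48 ± 0.10. Tac1, at -0.16 ± 0.14, was not called (edgeR adjusted p = 0.323). The score moved with the cage, at -1.76 to 1.51 (median -0.42) in calorimetry mice and -1.68 to 1.89 (median 0.31) in running wheel mice. The 3 cholinergic interneuron markers were called lower in calorimetry mice too, with Chat, the acetylcholine synthesis enzyme, at -0.83 ± 0.23, the vesicular transporter Slc18a3 at -0.81 ± 0.22 and the choline transporter Slc5a7 at -0.57 ± 0.18. Their part in the result was not tested. With the score in the model 7 of 9 were called (all genes: 60.6%). Tac1 was higher in calorimetry mice at 0.27 ± 0.052 (edgeR adjusted p = 3.91e-06). Lower there were Drd2 at -0.27 ± 0.070, Drd1 at -0.23 ± 0.036, Pde10a at -0.23 ± 0.033, Rgs9 at -0.17 ± 0.039, Scn4b at -0.17 ± 0.037 and Penk at -0.15 ± 0.033. Adora2a at -0.019 ± 0.046 and Ppp1r1b at 0.037 ± 0.035 were not called. With 9 genes, 7 called is little above the share of all genes.

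The comparison of 11:11 with 12:12 mice asked whether the light cycle moves these genes. All 9 had lower medians on 11:11, and none passed the test. Drd1 had 7.43 to 102 CPM (median 22.4) in 11:11 mice and 6.81 to 85.3 CPM (median 33.05) in 12:12 mice. Drd2 had 0.154 to 72.2 CPM (median 9.19) in 11:11 mice and 0.507 to 73.4 CPM (median 16.6) in 12:12 mice (n = 63 each). Adora2a had 1.07 to 75.2 CPM (median 10.9) in 11:11 mice and 2.07 to 63.03 CPM (median 21.3) in 12:12 mice. Ranges overlapped almost wholly in the receptors and in the peptides that follow. Penk had 14.2 to 299.8 CPM (median 50.9) in 11:11 mice and 14.4 to 292 CPM (median 88.4) in 12:12 mice. Tac1 had 4.31 to 58.9 CPM (median 10.6) in 11:11 mice and 5.01 to 51.7 CPM (median 14.5) in 12:12 mice. Ppp1r1b had 53.6 to 442 CPM (median 115) in 11:11 mice and 53.9 to 401 CPM (median 146) in 12:12 mice. The last 3 genes gave the same picture. Rgs9 had 5.99 to 112 CPM (median 19.4) in 11:11 mice and 7.14 to 99.98 CPM (median 35.5) in 12:12 mice. Pde10a had 39.4 to 639 CPM (median 138) in 11:11 mice and 45.6 to 523 CPM (median 201) in 12:12 mice. Scn4b had 79.2 to 504 CPM (median 170.3) in 11:11 mice and 80.02 to 419 CPM (median 205) in 12:12 mice.

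The 11:11 minus 12:12 difference was -0.61 ± 0.24 log2 units for Adora2a (± SE, edgeR adjusted p = 0.0787), -0.60 ± 0.27 for Drd2 (0.135) and -0.32 ± 0.15 for Drd1 (0.168). It was -0.37 ± 0.18 for Penk (edgeR adjusted p = 0.183) and -0.28 ± 0.14 for Tac1 (0.185). It was -0.45 ± 0.18 for Rgs9 (edgeR adjusted p = 0.0896), -0.33 ± 0.16 for Pde10a (0.151), -0.28 ± 0.13 for Ppp1r1b (0.167) and -0.25 ± 0.10 for Scn4b (0.08097). By edgeR's quasi-likelihood test 0 of 9 were called, where 12.6% of all 18841 genes were called, and 9 of 9 had an unadjusted p under 0.05. DESeq2 called 1 of 9 (all genes: 13.8%), and edgeR with no filter on low counts called 9 of 9 (all genes: 5.60%). The fit with no filter used a spread shared over genes, not that of the 9 genes themselves. The score moved with them, at -1.76 to 1.89 (median -0.10) in 11:11 mice and -1.73 to 1.70 (median 0.45) in 12:12 mice. With the score in the model the 9 differences lay between -0.076 and 0.034 log2 units, 0 of 9 were called (all genes: 10.5%) and 1 of 9 had an unadjusted p under 0.05. No light cycle change beyond the shared variation passed the test for any of the 9 genes.

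Within cages, the light cycle difference was largest in Adora2a of calorimetry mice. Adora2a had 1.804 to 23.2 CPM (median 4.39) in 11:11 calorimetry males and 2.09 to 41.6 CPM (median 3.62) in 12:12 calorimetry males, and 1.07 to 43.3 CPM (median 12.05) in 11:11 calorimetry females and 2.27 to 63.03 CPM (median 17.9) in 12:12 calorimetry females. Its difference there was -0.93 ± 0.35 (edgeR adjusted p = 0.0443), the 1 of 9 genes called, where 19.6% of all genes were called. In the males the median was the higher one on 11:11, in the females the lower one, and the ranges overlapped in both. Each single replicate number left out ended the call, and with the score in the model 0 of 9 were called (all genes: 17.8%). In running wheel mice 0 of 9 were called (all genes: 0.0690%) and the differences lay between -0.31 and -0.14, with 0 of 9 at an unadjusted p under 0.05. The difference of the light cycle effect between cages called 0 of 9, with values from -0.66 to -0.091 (all genes: 5.32%).

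**Figure D4:**
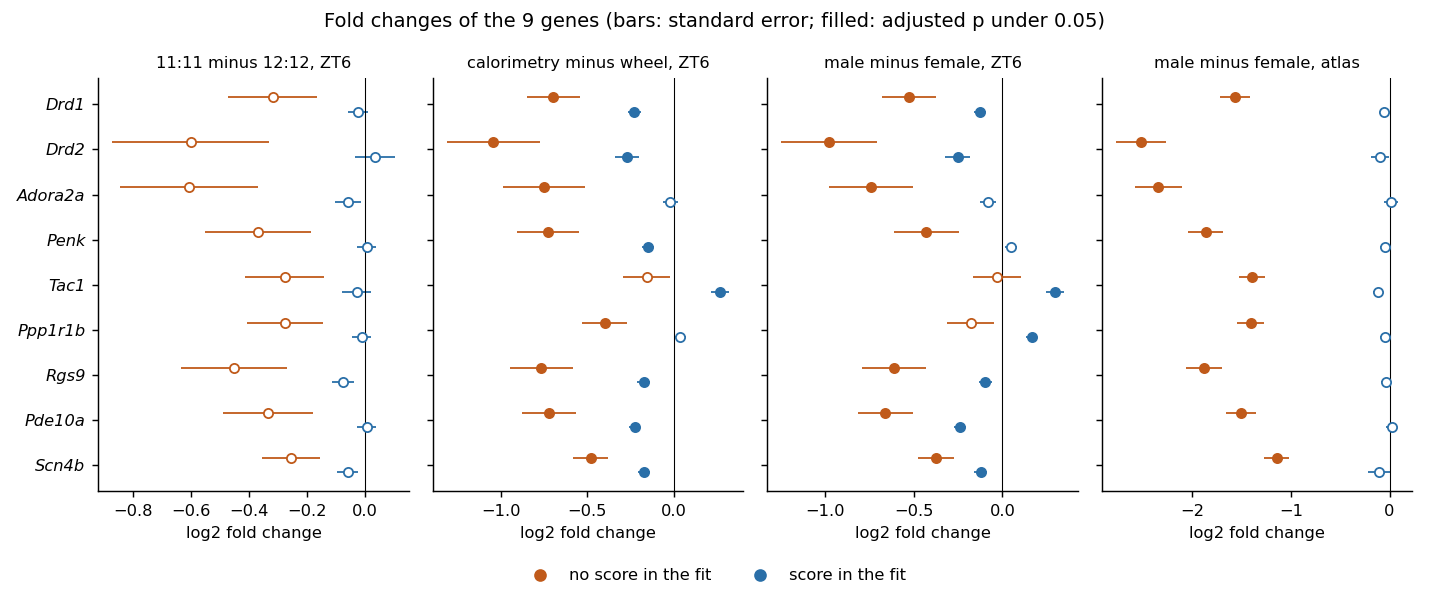
Log2 differences (± SE) of the 9 genes for 11:11 minus 12:12, calorimetry minus running wheel, and male minus female in the ZT6 set and in the atlas, without and with the striatal score in the model; filled points passed an adjusted p of 0.05. With the score, the atlas sex differences shrink to between -0.12 and 0.021 and the light cycle differences to between -0.076 and 0.034.

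None of the 9 genes passed the test in any genotype comparison. Drd1 had 8.39 to 102 CPM (median 35.6) in HET/WT mice, 7.36 to 78.4 CPM (median 26.6) in WT/TG mice, 6.81 to 95.4 CPM (median 31.8) in HET/TG mice and 8.37 to 85.3 CPM (median 21.1) in WT/WT mice. Drd2 had 0.154 to 72.2 CPM (median 17.5) in HET/WT mice, 0.533 to 47.5 CPM (median 11.98) in WT/TG mice, 0.507 to 73.4 CPM (median 15.02) in HET/TG mice and 0.372 to 53.3 CPM (median 7.74) in WT/WT mice. The 4 ranges overlapped almost wholly in both receptors. Differences from WT/WT ran from 0.12 to 0.34 log2 units in HET/WT mice (0 of 9 called, all genes 0.0425%), from -0.42 to -0.13 in WT/TG mice (0 of 9, 0.0159%) and from 0.010 to 0.23 in HET/TG mice (0 of 9, 0.0478%). The 3 comparisons share the WT/WT libraries, and in each 0 of 9 genes had an unadjusted p under 0.05. The directions depended on which replicate number was left out. Without the libraries numbered replicate 3, all 9 WT/TG differences were positive, at 0.050 to 0.24, and the HET/WT differences were 0.31 to 0.73. Without replicate 1 the HET/WT differences were -0.082 to 0.19, and without replicate 2 the HET/TG differences were -0.15 to 0.067, so both then had members on either side of 0. With the score in the model 0 of 9 were called for HET/WT (all genes: 0.0372%), WT/TG (0.0159%) and HET/TG (0.0478%), and an unadjusted p under 0.05 was found in 2 of 9 for HET/WT, 0 of 9 for WT/TG and 2 of 9 for HET/TG. The smallest p was that of Penk in HET/TG mice, at 0.18 ± 0.044 (edgeR adjusted p = 0.138, and 0.0502 with the square of the score). With no filter on low counts the differences were called in 9 of 9 genes for HET/WT (all genes: 0.280%), 8 of 9 for WT/TG (0.199%) and 3 of 9 for HET/TG (0.219%). The spread that edgeR used for the 9 genes was then far smaller, with a median quasi-likelihood dispersion of 0.781 without the filter and 35.3 with it. Without the filter their prior degrees of freedom, the weight of the spread shared over genes, were infinite, against a median of 0.179 with it. The shared spread thus replaced their own, and the calls without the filter do not rest on the spread of the 9 genes themselves.

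No gene of the 9 passed the test for a rhythm in the levels themselves. A cosine of a 24 h period with sex in the model gave peak-to-trough differences of 0.059 to 0.35 log2 units, and edgeR's quasi-likelihood test called 0 of 9, where 41.4% of all 17193 genes were called. The adjusted p-values by edgeR ran from 0.405 to 0.965, and 0 of 9 had an unadjusted p under 0.05. Within 1 time the libraries of a sex spread widely: at ZT0 Drd1 had 7.14 to 25.9 CPM (median 13.01) in males and 9.86 to 89.1 CPM (median 25.7) in females, and at ZT12 9.88 to 24.4 CPM (median 18.4) in males and 10.6 to 78.4 CPM (median 34.1) in females. At both times the spread among females was larger than the difference between the medians of the 2 times. Sex did not change the rhythm of any of the 9 genes past the threshold (0 of 9 called, all genes 0.0756%), and 0 of 9 had an unadjusted p under 0.05.

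With the striatal score in the model, 3 of 9 genes passed, Ppp1r1b, Rgs9 and Scn4b, where 42.8% of all genes were called. Ppp1r1b had a peak-to-trough difference of 0.21 ± 0.048 log2 units with its peak at ZT11.4 (adjusted p = 0.000688). Its residual after score and sex had medians of -0.085 at ZT0, -0.13 at ZT3, 0.10 at ZT6, 0.11 at ZT9, 0.061 at ZT12, 0.031 at ZT15, -0.082 at ZT18 and -0.080 at ZT21. They were high through the later light phase and low in the late night and early morning. Rgs9 had 0.20 ± 0.047 with its peak at ZT6.73 (adjusted p = 0.00108). The medians of its residual were -0.057 at ZT0, 0.082 at ZT3, 0.12 at ZT6, 0.11 at ZT9, -0.012 at ZT12, -0.10 at ZT15, -0.013 at ZT18 and -0.075 at ZT21. They were high from ZT3 to ZT9 and lowest at ZT15. Scn4b had 0.35 ± 0.11 with its peak at ZT11.8 (adjusted p = 0.0225), and its low values fell at ZT0 and ZT3, the times of the 3 libraries that stood apart. Without those 3 libraries it had 0.22 ± 0.072 with its peak at ZT11.00 (adjusted p = 0.0382). Pde10a passed as well in that fit, at 0.19 ± 0.053 with its peak at ZT21.7 (adjusted p = 0.0119). In that fit Ppp1r1b had 0.18 ± 0.046 (adjusted p = 0.00413) and Rgs9 0.20 ± 0.041 (adjusted p = 0.000156). The same libraries were low in these genes too. The male one at ZT0 had residuals of -0.49 in Ppp1r1b and -0.58 in Rgs9, the female one at ZT0 -0.35 and -0.40, and the female one at ZT3 -0.48 and -0.31. That fit called 4 of 9 (all genes: 38.9%). With all libraries Pde10a had 0.16 ± 0.056 (adjusted p = 0.0553). The other 5 genes, all 3 receptors and both peptides, had differences of 0.049 to 0.12 and were not called. A model with the score and its square called 6 of 9 (all genes: 42.1%), adding Tac1, Penk and Pde10a.

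**Figure D5:**
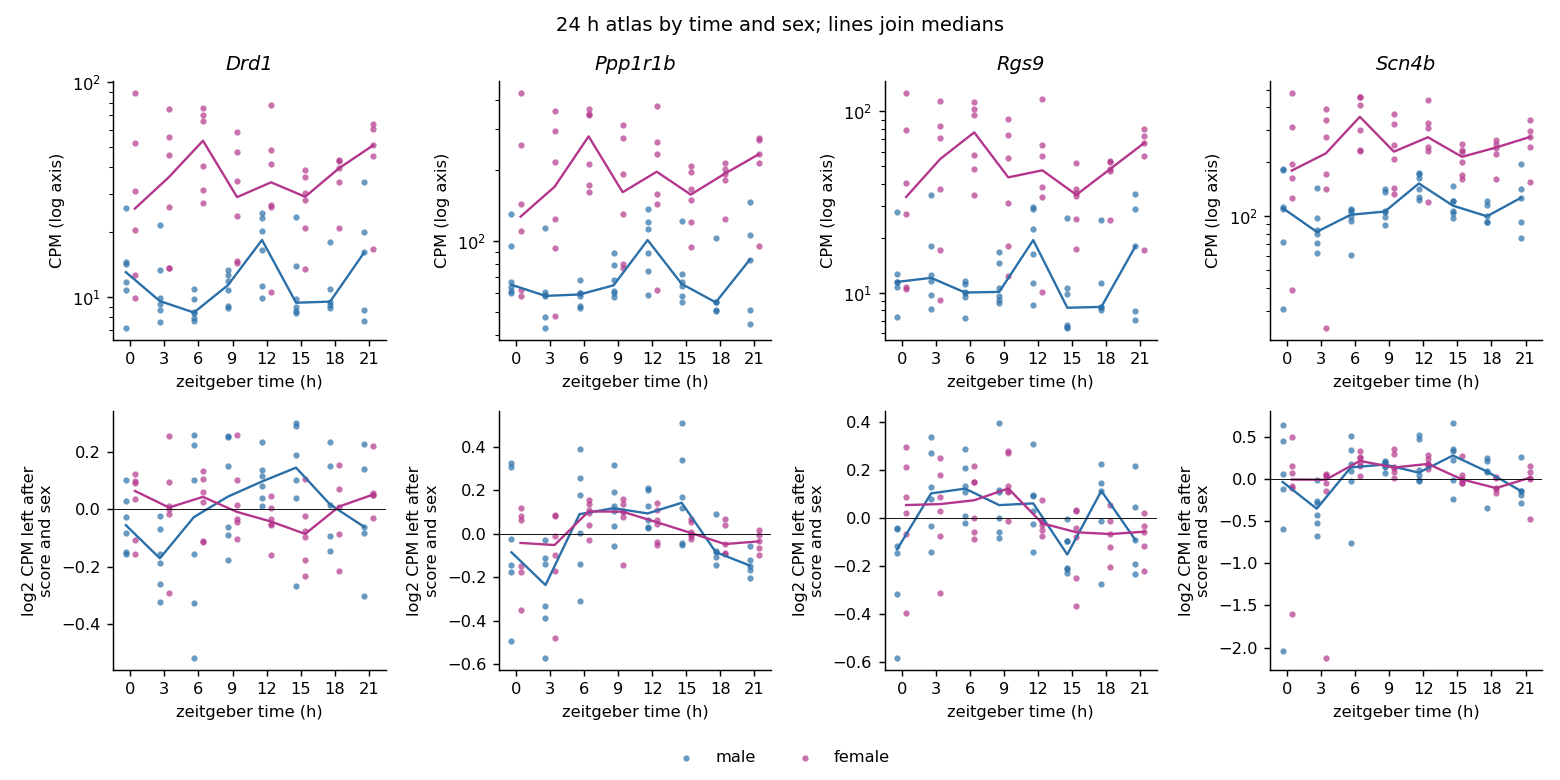
Drd1, Ppp1r1b, Rgs9 and Scn4b across the 8 atlas times, with males (blue, left) beside females (pink, right), 1 point per library: CPM on a log axis above, and below the residual in log2 units after striatal score and sex were fitted. Females spread widely within each time in CPM, and the residuals run from -0.57 to 0.51 in Ppp1r1b and from -0.58 to 0.40 in Rgs9, while 3 Scn4b residuals at ZT0 and ZT3 lie between -2.12 and -1.60.

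The rest of the dopamine and cyclic AMP pathway (23 genes listed, 22 tested in the ZT6 set and 20 in the atlas) followed the 9 genes in part. Over libraries, Pde7b, another phosphodiesterase of these neurons, correlated with the mean of the 9 at 0.919 in the ZT6 set and 0.868 in the atlas. Arpp21, another target of protein kinase A, was at 0.905 and 0.878, and Gnb5, the partner that stabilises the Rgs9 protein, at 0.691 and 0.661. The D5 receptor Drd5 was at -0.0673 and -0.0753, and the A1 adenosine receptor Adora1, which the cortex expresses widely, at -0.412 and -0.276. In the atlas 15 of 20 were called between sexes (all genes: 41.1%), 2 higher and 13 lower in males, with a median of -0.13 log2 units where the median of all genes was -0.00080. With the score, 2 of 20 were called (all genes: 12.5%). For the light cycle 1 of 22 was called (all genes: 12.6%), Ddc, which makes dopamine from L-DOPA, higher in 11:11 mice at 0.16 ± 0.052 (edgeR adjusted p = 0.0258) and at 0.17 ± 0.053 with the score. For rhythm 9 of 20 were called (all genes: 41.4%), and the same number with the score (all genes: 42.8%).

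Of 9 receptors and precursors of the opioid and tachykinin systems, Tacr1, the substance P receptor, correlated with the mean of the 9 striatal genes at 0.887 in the ZT6 set and 0.831 in the atlas. Oprk1, the kappa opioid receptor (a gene of the claustrum list too), was at 0.778 and 0.708, and Pdyn, the dynorphin precursor of direct pathway neurons, at 0.612 and 0.791. The median over this list was 0.391 in the ZT6 set and 0.338 in the atlas. Its lowest values were those of Oprl1 at -0.206 in the ZT6 set and Pnoc at -0.372 in the atlas. In the atlas 7 of 9 were called between sexes (all genes: 41.1%), 2 higher and 5 lower in males, with a median of -0.22. For the light cycle 1 of 9 was called (all genes: 12.6%). Oprk1 was lower in 11:11 mice at -0.38 ± 0.089 (edgeR adjusted p = 0.00186), and it was called with the score too, at -0.26 ± 0.060 (adjusted p = 0.00141). Of the 9 striatal genes, none was called in either fit. Whether its change differed from theirs was not tested. Of 7 other sodium channel subunits, the mean correlated with the 9 genes at 0.0568 in the ZT6 set and 0.0483 in the atlas, and the highest single value was that of Scn3a at 0.589 and 0.442. Of these 0 of 7 were called for the light cycle (all genes: 12.6%), 4 of 7 between atlas sexes, 2 higher and 2 lower in males (all genes: 41.1%), and 5 of 7 for rhythm (all genes: 41.4%).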

How the data were processed

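RNA from 10 to 20 mg pieces of left prefrontal cortex was depleted of ribosomal RNA and made into directional libraries sequenced on a NovaSeq, per the labels' protocols. The submitters' processing notes name Trim Galore, STAR, SAMtools, limma and the genome build mm10. The authors deposited raw counts per Ensembl gene, in 1 table for the ZT6 set and 1 for the atlas. The strand setting of the counting is not given in the sources used here. Names and positions came from GENCODE release 21 for mouse (55141 of 55487 identifiers matched), and promoter sequences from RefSeq.

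Counts were fitted with edgeR 4.0.16 (TMM scaling, filterByExpr by group, robust quasi-likelihood test, Benjamini-Hochberg adjustment over all genes tested, threshold 0.05); DESeq2 1.42.0 was an alternative. The ZT6 model had 1 mean per group (genotype within light cycle, sex and cage), and each contrast averaged over the remaining factors. The atlas model had sex and a cosine and sine of 24 h, tested jointly, and the SE of a peak-to-trough difference is approximate, taken from that joint test. CPM in the text are TMM-scaled, and log2 CPM used a prior count of 2. The striatal score entered models as a linear covariate in an alternative to each fit. Replicates are those the labels call biological, and 1 sample (running wheel, male, 12:12, WT/TG, replicate 3) had no matching column and was not analysed here.

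The 9 genes, the marker lists, the score and the contrasts were chosen with earlier results of these data known, so patterns those results already showed are no independent support. All 9 genes are named, other genes by their correlation with the mean of the 9 (the top 10 in each table) or by a list, and 1 gene among them is not reported here. The score with its square, the libraries apart in Scn4b, the sex contrasts within cages and the sex by cage contrast were added after the data were seen. No 2 libraries held identical values. The tests were tried on simulated data in which genes varied independently of each other. That trial does not show how the tests behave for genes that vary together, as the 9 do.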

Additional observations from a re-analysis of the deposited data

Results flagged for a closer look

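The sex difference depended on the cage for 6 genes, by the test of the difference itself (male minus female in calorimetry mice, minus the same in running wheel mice, log2 units, edgeR adjusted p). By edgeR's quasi-likelihood test it was -0.94 ± 0.31 for Drd1 (adjusted p = 0.00671), -1.29 ± 0.54 for Drd2 (adjusted p = 0.03802), -0.89 ± 0.36 for Penk (adjusted p = 0.0327), -0.88 ± 0.27 for Tac1 (adjusted p = 0.00459), -0.90 ± 0.31 for Pde10a (adjusted p = 0.0114) and -0.58 ± 0.20 for Scn4b (adjusted p = 0.0119). Of all genes 51.8% were called, leaving out the libraries numbered replicate 4 left 2 of the 9, and with the striatal score in the model the median of the 9 values was -0.13, against -0.88 without it.

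Single libraries lay far from the rest of their group in 51 of 460 checks by Dixon's test, where chance gives about 1 in 20. A check took 1 gene, or the score, in 1 group of 4 to 6 libraries. Because the 9 genes and the score vary together, the flagged cases are a few libraries seen many times over. In the ZT6 set, the running wheel female 12:12 WT/WT replicate 2 was low throughout, with 13.6 CPM of Drd1, 1.42 of Drd2, 2.07 of Adora2a, 5.37 of Tac1, 62.1 of Ppp1r1b, 9.68 of Rgs9, 66.7 of Pde10a and a score of -1.21. In Drd1 the other libraries of its group had 49.9 to 59.4 CPM. The running wheel female 11:11 HET/TG replicate 1 was low as well, with 10.4 CPM of Drd1 (the others 29.1 to 33.3), 0.5402 of Drd2, 2.38 of Adora2a, 21.02 of Penk, 64.02 of Ppp1r1b and a score of -1.46. The calorimetry male 12:12 HET/TG replicate 2 was high, with 16.6 CPM of Drd2 (the others 0.507 to 0.839), 28.8 of Adora2a, 100.2 of Penk, 181 of Pde10a and a score of 0.59. The calorimetry male 12:12 HET/WT replicate 1 was high too, with 43.6 CPM of Drd1, 229.99 of Pde10a and a score of 0.98. The running wheel male 11:11 WT/WT replicate 3 had 61.4 CPM of Drd1 and 255 of Ppp1r1b, above its group. Further cases were the calorimetry male 11:11 HET/WT replicate 1 with 8.39 CPM of Drd1 (low), the calorimetry female 11:11 HET/TG replicate 3 with 308 CPM of Scn4b (high) and the running wheel male 11:11 WT/TG replicate 4 with a score of 0.19 (high).

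In the atlas, the female ZT21 replicate 1 was low throughout, with 16.6 CPM of Drd1 (the others 45.1 to 63.9), 6.75 of Drd2, 9.06 of Adora2a, 45.7 of Penk, 8.79 of Tac1, 95.3 of Ppp1r1b, 17.2 of Rgs9, 125 of Pde10a and a score of -0.26. The female ZT18 replicate 2 was low, with 12.99 CPM of Drd2, 15.5 of Adora2a, 65.6 of Penk and 25.1 of Rgs9, and the female ZT12 replicate 1 had 1.63 CPM of Drd2. Among males, ZT18 replicate 4 was high, with 11.7 CPM of Tac1, 104 of Ppp1r1b, 138 of Pde10a and a score of 0.032. ZT3 replicate 2 had 12.2 CPM of Tac1 and 114 of Ppp1r1b, and ZT15 replicate 4 had 121 CPM of Ppp1r1b and 25.9 of Rgs9, both above their groups. Scn4b was low in the female ZT3 replicate 5 at 23.99 CPM, where the others of its group had 141 to 394, and in the male ZT6 replicate 6 at 60.6 CPM. Why these libraries differ was not tested.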

How the results depend on the processing

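Counts of the 9 genes called held within 1.5 times under scaling by RLE, DESeq2, a time factor in place of the cosine, and without the library that goes against its label or those apart in Scn4b, except as follows. For the light cycle in calorimetry mice (1 called), DESeq2 called 3, RLE scaling 2, the fit with no filter 9, and each replicate number left out gave 0. For the light cycle over both cages (0 called), DESeq2 called 1 and no filter 9. With no filter, 9 genes were called for the light cycle in running wheel mice, 8 for its interaction with cage, 9 for HET/WT, 8 for WT/TG, 3 for HET/TG and 5 for the sex difference in running wheel mice, none of which had a call with the filter. That fit tested more genes and used a spread shared over genes in place of the 9 genes' own (0.781 in place of 35.3). In the atlas the spread was 31.7 in place of 30.9 and no count moved. Leaving out a replicate number gave 5 to 8 calls for sex in calorimetry mice and 2 to 6 for the interaction of sex with cage.

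The striatal score changed most. With it, and with its square added, the counts were 0 and 0 for the light cycle in calorimetry mice, 4 and 4 for sex in running wheel mice, 0 and 1 for sex in the atlas, and 3 and 6 for rhythm, and sex in calorimetry mice had 5 with the score alone. With the score and without the libraries apart in Scn4b, sex in the atlas had 1 and rhythm 4. Differences that changed sign, first with the score and then with its square, were for calorimetry minus running wheel 0.269 and 0.253 in Tac1 and 0.0375 and 0.0249 in Ppp1r1b, and for 11:11 minus 12:12 0.0339 and 0.0148 in Drd2, 0.00618 and 0.00985 in Pde10a and 0.00629 and 0.0126 in Penk. For male minus female in calorimetry mice they were 0.112 and 0.156 in Adora2a, 0.299 and 0.248 in Ppp1r1b and 0.145 and 0.0804 in Tac1, and 0.00714 in Penk with the score alone. For male minus female in the atlas they were 0.0158 and 0.0543 in Adora2a and 0.0213 and 0.00405 in Pde10a. Fitting the score removes variation shared with 18 other genes by construction; whether it also removes an effect on the cells themselves was not tested. Of 56 results of single genes, 567 alternative values kept direction and side of the threshold, 39 passed it newly, 52 lost it and 21 changed sign.

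Same-numbered libraries did not deviate together (median correlation of deviations 0.00524 in the ZT6 set and 0.00176 in the atlas), so the numbers do not pair the samples; the replicate block gave 3 calls for the light cycle in calorimetry mice and 2 for it over both cages, and the same counts within 1.5 times elsewhere. No library had a score over 3 median absolute deviations above its table's median, so leaving out such libraries gave no value. At the lowest levels, Drd2 rested on as few as 2 reads. The p-values cover the spread between libraries, which includes how each piece was cut. They do not cover a cut that differed between groups.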
